A study of Mus musculus with 8 samples.

Results

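The genes described here mark T cells and the intraepithelial lymphocytes of the gut: Cd3e, Cd3g, Cd4, Cd8a, Cd8b1, Gzma, Gzmb, Itgae, Foxp3 and Klrk1. They were taken as the probes of the array, controls left out, whose gene name is one of these 10 symbols. All 10 genes were found, among 35715 names on the array, with 12 probes in all. The data are 1-colour microarray profiles of the ileum, the stretch of gut just before the colon, of female mice, with 4 arrays per group. In the doxycycline group, mice of the strain Rosa26rtTA/+, Hprt Myc-Tnk1tg received 50 µg of doxycycline per g of body weight intraperitoneally in 100 µl. In the saline group, mice given the same strain in the labels received 100 µl of 0.9% NaCl, and both groups were examined at 24 hours. The strain combines rtTA, a doxycycline-dependent activator expressed from the broadly active Rosa26 locus, with a Myc-tagged Tnk1 transgene at Hprt. The source name of the saline samples reads WT, which goes against their strain label, and doxycycline was not given to any mice that lack the transgene. An effect of the drug, of the transgene and of a difference in genotype therefore cannot be told apart.

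Intraepithelial lymphocytes are T cells that sit between the epithelial cells of the gut. Many carry CD8 as a homodimer of its alpha chain, and many are held in place by an integrin that binds E-cadherin and whose alpha chain is encoded by Itgae. They store granzymes, serine proteases that enter target cells with the help of perforin. The lamina propria and the lymphoid follicles of the ileum hold further T cells, mostly with the CD4 coreceptor, and among these are the regulatory cells that depend on the transcription factor Foxp3.

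The probes are 60 bases long, and 3 of them are shown because the results for their genes turn on which probe is read, or because the array places the probe nowhere. The Cd8a probe at chr6:71323885-71323944 (mm9) and the Cd4 probe at chr6:124817706-124817765 (mm9) are the dimmer of 2 for their gene. The Itgae probe has no position in the array's annotation, and RefSeq places the gene on chromosome 11. Each of the 3 holds a forward reading frame with no stop codon.
Cd8a, dimmer probe: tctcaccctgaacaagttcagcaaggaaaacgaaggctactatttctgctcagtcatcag
Cd4, dimmer probe: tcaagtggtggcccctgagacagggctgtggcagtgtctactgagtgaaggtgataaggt
Itgae: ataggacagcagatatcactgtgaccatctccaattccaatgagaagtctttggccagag

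Promoters are shown for Gzmb and Gzma, the members whose arrays did not overlap between the groups. The RefSeq promoter table (GRCm38.p6) held 7 of the 10 members. The 250 bases before the start of Gzmb lie at chr14:56262335-56262584 and those of Gzma at chr13:113100982-113101231, both on the minus strand, and are printed in the direction of the gene. Capitals mark matches on either strand to TGTGGT, the core bound by Runx factors, TGANTCA, the AP-1 core, and AGGTGT, a T-box half-site.
Gzmb: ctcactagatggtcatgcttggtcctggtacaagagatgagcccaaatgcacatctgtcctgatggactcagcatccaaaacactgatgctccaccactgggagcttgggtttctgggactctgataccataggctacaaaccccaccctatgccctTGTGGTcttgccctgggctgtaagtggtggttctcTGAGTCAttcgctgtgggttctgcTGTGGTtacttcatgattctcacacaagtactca
Gzma: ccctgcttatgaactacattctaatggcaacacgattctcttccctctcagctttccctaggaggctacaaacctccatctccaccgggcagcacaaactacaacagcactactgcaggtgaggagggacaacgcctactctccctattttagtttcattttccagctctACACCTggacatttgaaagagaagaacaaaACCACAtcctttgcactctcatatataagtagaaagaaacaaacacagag
The Gzmb stretch holds 2 matches to TGTGGT and 1 to TGANTCA, and none to AGGTGT. The Gzma stretch holds 1 match to TGTGGT and 1 to AGGTGT, both on the opposite strand, and none to TGANTCA. Of 32851 promoters in the table, read over the same length, 14.0% hold TGTGGT, 6.7% hold TGANTCA and 11.8% hold AGGTGT. Such short letters occur often, and a match describes the sequence only.

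Levels below are log2 processed intensities after subtraction of each array's 75th percentile, so a level has meaning for 1 probe across arrays and not between probes. A probe is called detected where the scanner software marks it as well above background. Of the 55681 probes, 54.8% to 57.0% were detected on the doxycycline arrays and 39.7% to 43.1% on the saline arrays. The dimmest signal that counted as detected was lower on doxycycline arrays, at -4.90 to -4.51, against -3.07 to -2.57 on saline arrays. Array positions, read from the names of the deposited scans, put all doxycycline arrays in row 1 and all saline arrays in row 2. The treatment therefore cannot be told apart from the row. The inserted gene was read by 2 probes: the dimmer Tnk1 probe was 6.92-fold higher with doxycycline (SE 0.225 on the log2 scale, adjusted p = 4.16e-04), while the brighter one averaged 2.13 ± 0.23 on doxycycline arrays and 2.58 ± 0.26 on saline arrays (SD, n = 4 for each group, adjusted p = 0.143). Hprt, the locus of the insertion, averaged 4.34 ± 0.14 on doxycycline arrays and -1.67 ± 0.58 on saline arrays. Saline replicate 2 stood apart in its lymphoid markers. The mean level of 9 B cell markers, set to 0 at the saline mean, was 0.94, 1.51, 1.01 and 2.11 on the doxycycline arrays, and on the saline arrays it was 2.55 in replicate 2 and -1.03 to -0.73 in the others. Results are therefore also given without that array. The array was picked for these markers, so calls of immune markers gained without it follow in part from that choice.

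Of the 10 genes, Gzmb alone passed the test, and it was lower with doxycycline. A total of 9 members could be tested, since Klrk1 was detected on no array. None of the 9 was called higher and 1 was called lower at a limma adjusted p under 0.05. Across all 21362 genes tested 13.8% were called, 5.94% higher and 7.9% lower, so the share among the members, 1 of 9, is near that of the array as a whole. The groups did not overlap for 2 members, Gzma and Gzmb, both lower with doxycycline, against 21.9% of all genes without overlap, 8.83% higher and 13% lower. The median difference of the 9 was -0.13 (log2, doxycycline minus saline), and that of all genes 0.02. Fewer T cells and less RNA per T cell cannot be told apart in RNA from whole tissue.

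**Figure D1:**
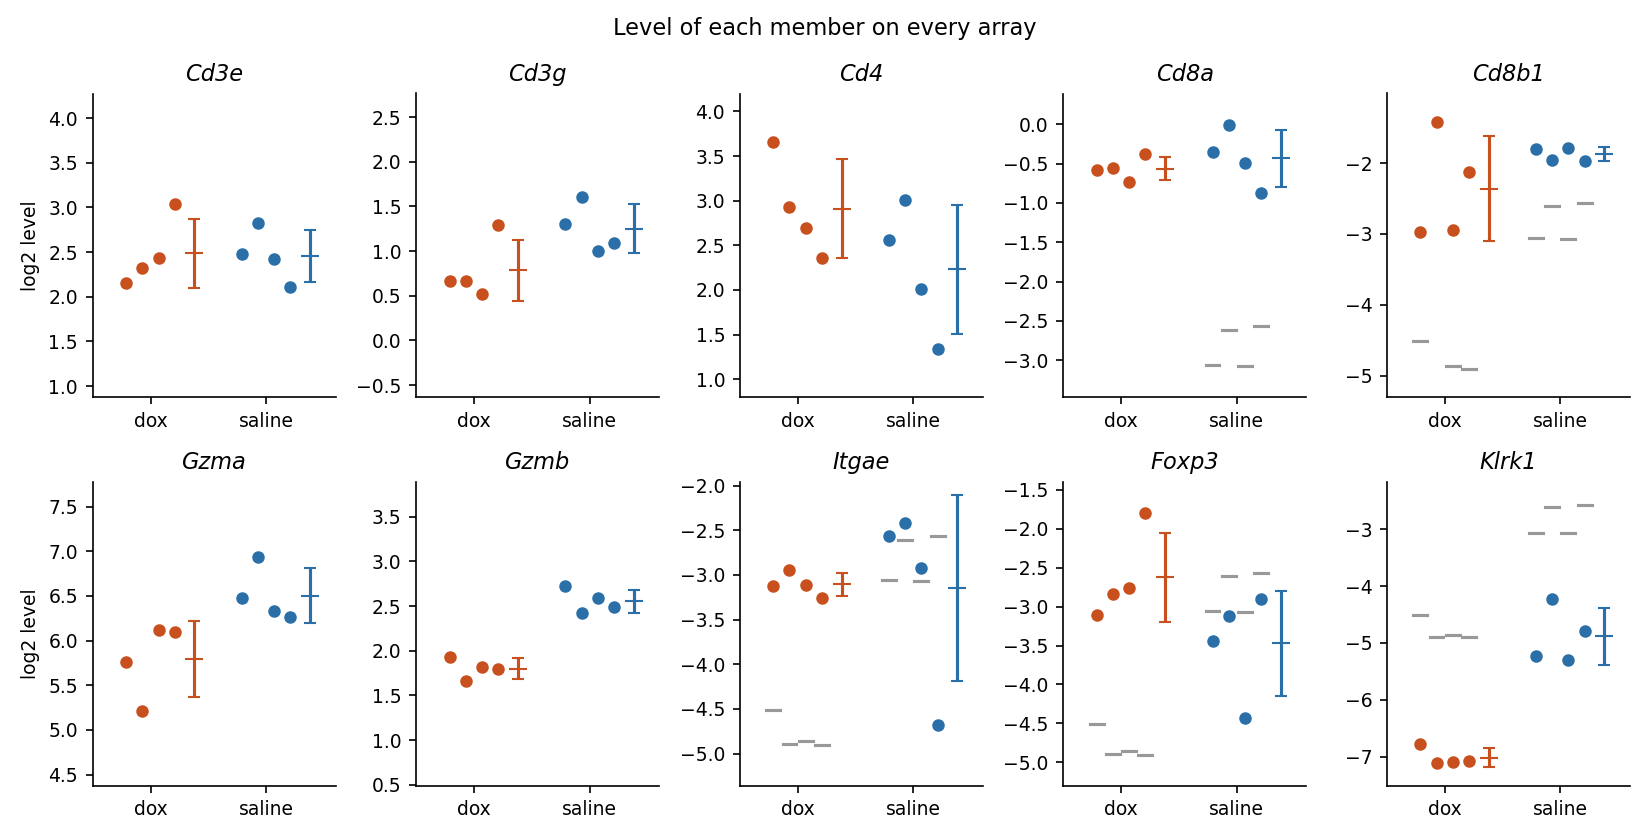
Log2 level of each of the 10 genes on every array, 4 with doxycycline (dox, orange, left) and 4 with saline (blue, right), with the mean and SD beside the points; each panel has its own axis. Short grey lines, drawn where they fall near the points, give the array's dimmest detected signal. Gzma and Gzmb separate the groups, and the Klrk1 points all lie below the grey lines.

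Cd3e and Cd3g encode signalling chains of the T cell receptor complex, which every mature T cell carries. Cd3e (probe at chr9:44806828-44806887, mm9) read 2.15, 2.32, 2.43 and 3.04 with doxycycline and 2.48, 2.82, 2.42 and 2.11 with saline. The highest array belonged to the doxycycline group and the lowest to the saline group, and the ranges overlapped almost entirely. The difference was 0.03 (SE 0.233, 95% interval -0.50 to 0.56, adjusted p = 0.943). Its sign turned without doxycycline replicate 4 (-0.15) and without saline replicate 4 (-0.08). Cd3g (chr9:44777868-44777927) read 0.67, 0.67, 0.52 and 1.29 with doxycycline and 1.3, 1.61, 1.0 and 1.09 with saline. Of the doxycycline arrays, 3 lay below every saline array and replicate 4 lay among them. The difference of -0.46 (SE 0.216, 95% interval -0.95 to 0.03) did not pass (adjusted p = 0.179).

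The wider set of 8 T cell markers, Cd3e and Cd3g among them with Cd3d, Cd247, Cd2, Cd5, Cd6 and Cd28, gave no call either. Their mean level, set to 0 at the saline mean, was -0.15, 0.12, 0.04 and 0.90 on the doxycycline arrays and 0.21, 0.64, -0.38 and -0.47 on the saline arrays. Doxycycline replicate 4 and saline replicate 2 were the highest of their groups. Cd2, an adhesion receptor of T cells, showed the widest spread of the set. It read 1.02, 2.09, 1.72 and 3.0 with doxycycline and 0.66, 2.91, 0.16 and 0.06 with saline (difference 1.01, SE 0.654, adjusted p = 0.327).

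The coreceptors CD4 and CD8 bind the major histocompatibility molecules and divide T cells into helper and cytotoxic classes. In the brighter Cd4 probe (chr6:124814711-124814770) the level was 3.66, 2.93, 2.69 and 2.36 with doxycycline and 2.56, 3.01, 2.01 and 1.34 with saline. Doxycycline replicate 1 was the highest and saline replicate 4 the lowest, with overlap between. The difference of 0.68 (SE 0.392, 95% interval -0.21 to 1.57) did not pass (adjusted p = 0.270). It was 0.43 without doxycycline replicate 1, 0.38 without saline replicate 4 and 0.94 without saline replicate 2, and passed in none of these. Cd4 is also made by some myeloid cells. The dimmer Cd4 probe, the second sequence printed, was spotted 10 times on each array and was detected on 3 of 4 doxycycline and 0 of 4 saline arrays. It averaged -4.75 with doxycycline and -4.66 with saline, and it was too dim to be tested.

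Cd8a encodes the alpha chain of CD8 and Cd8b1 the beta chain, which conventional cytotoxic T cells pair with it. The brighter Cd8a probe (chr6:71328911-71328970), an average of 10 spots, read -0.58, -0.56, -0.74 and -0.38 with doxycycline and -0.35, -0.01, -0.49 and -0.88 with saline. The saline arrays enclosed the doxycycline arrays, and the difference was -0.13 (SE 0.201, 95% interval -0.59 to 0.32, adjusted p = 0.693). Without saline replicate 2 it was 0.01. The dimmer Cd8a probe, the first sequence printed, read -2.80, -2.53, -3.63 and -3.56 with doxycycline and -2.14, -2.10, -2.15 and -3.14 with saline. It was detected on 4 of 4 doxycycline and 3 of 4 saline arrays. Doxycycline replicates 3 and 4 lay below the dimmest signal that counted as detected on saline arrays. Here 3 saline arrays lay above all doxycycline arrays, and the difference was larger, at -0.75 (SE 0.330, unadjusted p = 0.0495, adjusted p = 0.161 over all kept probes). The probes of Cd8a thus pointed the same way with different sizes, and neither passed. Cd8b1 (chr6:71287231-71287290) read -2.97, -1.42, -2.94 and -2.12 with doxycycline and -1.80, -1.96, -1.79 and -1.97 with saline. The saline arrays lay within 0.2 of each other, and the doxycycline arrays spread to both sides of them (difference -0.48, SE 0.329, 95% interval -1.23 to 0.26, adjusted p = 0.351). The size turned on single doxycycline arrays, at -0.80 (adjusted p = 0.0666) without replicate 2, -0.28 without replicate 1 and -0.29 without replicate 3.

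Granzyme B, encoded by Gzmb, is a protease that starts apoptosis in target cells, and intraepithelial lymphocytes hold it ready. Gzmb (chr14:56877916-56877975) read 1.93, 1.66, 1.82 and 1.80 with doxycycline and 2.72, 2.42, 2.59 and 2.49 with saline. Every doxycycline array lay below every saline array, and the gap between the groups exceeded the spread within each. The level fell by 0.75 on the log2 scale, 1.68-fold lower (95% interval 1.35 to 2.10, SE 0.141, adjusted p = 0.0109). Without saline replicate 2 the difference was -0.80 (adjusted p = 0.0166), and the call held under every alternative tried, with an adjusted p of 0.0023 to 0.0433.

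Granzyme A, encoded by Gzma, is a tryptase of the same granules. Gzma (chr13:113884035-113884094) read 5.76, 5.21, 6.12 and 6.09 with doxycycline and 6.48, 6.94, 6.33 and 6.26 with saline. The groups did not overlap, but doxycycline replicate 3 and saline replicate 4 differed by little, and doxycycline replicate 2 was the lowest. The difference of -0.71 (SE 0.246, 1.63-fold lower, 95% interval 1.11 to 2.40) did not pass after adjustment over all genes (adjusted p = 0.0876). It was -0.56 without saline replicate 2 (adjusted p = 0.163), and it passed with array weights only (adjusted p = 0.0480). The size of the difference was thus close to that of Gzmb, with a larger error.

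Itgae encodes the alpha chain of the integrin that binds E-cadherin, also known as CD103. Its probe read -3.12, -2.94, -3.11 and -3.26 with doxycycline and -2.57, -2.42, -2.92 and -4.68 with saline. It was detected on 4 of 4 doxycycline arrays and 1 of 4 saline arrays. The doxycycline arrays lay close together, while 3 saline arrays lay above them and saline replicate 4 below. The difference was 0.04 (SE 0.448, 95% interval -0.97 to 1.06, adjusted p = 0.961), and without saline replicate 4 it was -0.47 (adjusted p = 0.0969). No direction can be read from this probe.

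Foxp3, the transcription factor of regulatory T cells (chrX:7172301-7172360), read -3.11, -2.84, -2.76 and -1.80 with doxycycline and -3.44, -3.12, -4.43 and -2.90 with saline. It was detected on 4 of 4 doxycycline arrays and 0 of 4 saline arrays, where the dimmest signal that could count was itself higher. Against that bound it was at least 1.15-fold higher with doxycycline, and the measured means were -2.63 with doxycycline and -3.47 with saline. This bound rested on doxycycline replicate 4, since without that array no fold can be given. The fitted difference was 0.85 (SE 0.382, adjusted p = 0.167). It shrank to 0.16 with another background correction (normexp) and to 0.19 with a common floor at -2.57, and it was 0.57 without doxycycline replicate 4 and 0.53 without saline replicate 3.

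Klrk1 encodes NKG2D, an activating receptor of natural killer cells and cytotoxic T cells that recognises stress-induced ligands. Its probe was detected on none of the 8 arrays and gives no fold. It read -7.11 to -6.78 with doxycycline and -5.30 to -4.22 with saline. The median of all undetected probes differed in the same direction, at -6.97 to -6.63 with doxycycline and -5.14 to -4.63 with saline. The array's annotation places this probe at chr16:78233089-78233148 (mm9), whereas RefSeq has Klrk1 on chromosome 6.

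**Figure D2:**
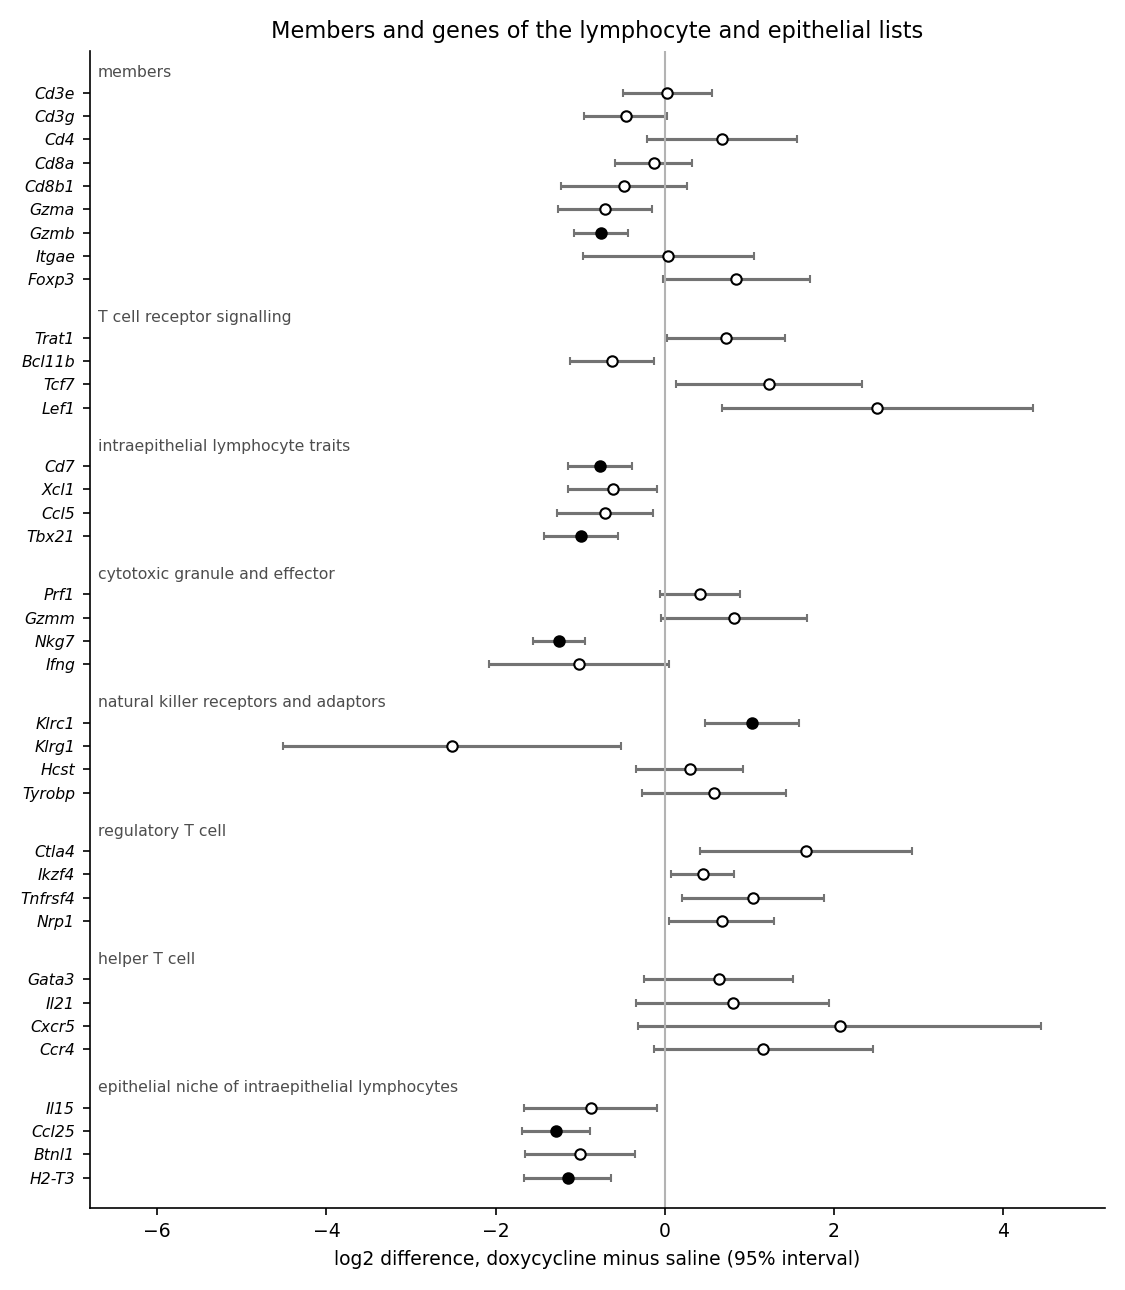
Log2 difference, doxycycline minus saline, for the 9 tested members and for up to 4 genes with the smallest p in each of 7 lists; bars are 95% intervals of the limma fit. Filled points passed an adjusted p under 0.05 and open points did not. Gzmb, Cd7, Tbx21, Nkg7, Ccl25 and H2-T3 are filled and lie left of 0, and Klrc1 is filled and lies right of 0 but was detected on no saline array.

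To compare members free of the scaling between arrays, they were also set against Cd3e on the same array. The pairs were chosen after the levels had been seen and carry no test, and only the change between groups has meaning. Gzma minus Cd3e was 3.61, 2.88, 3.69 and 3.05 with doxycycline and 4.01, 4.12, 3.92 and 4.15 with saline. Cd3g minus Cd3e was -1.48, -1.65, -1.91 and -1.75 with doxycycline and -1.18, -1.21, -1.41 and -1.02 with saline. In both pairs all doxycycline arrays lay below all saline arrays, with changes of -0.74 and -0.50, also with normexp background (-0.70 and -0.58) and with quantile scaling (-0.71 and -0.53). Gzmb minus Cd3e changed by -0.78, with 1 saline array among the doxycycline arrays. Cd8a minus Cd3e (-0.16) and Cd4 minus Cd3e (0.65) overlapped. Gzma alone already separated the groups while Cd3e differed by 0.03, and the share of all gene pairs without overlap was not computed.

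**Figure D3:**
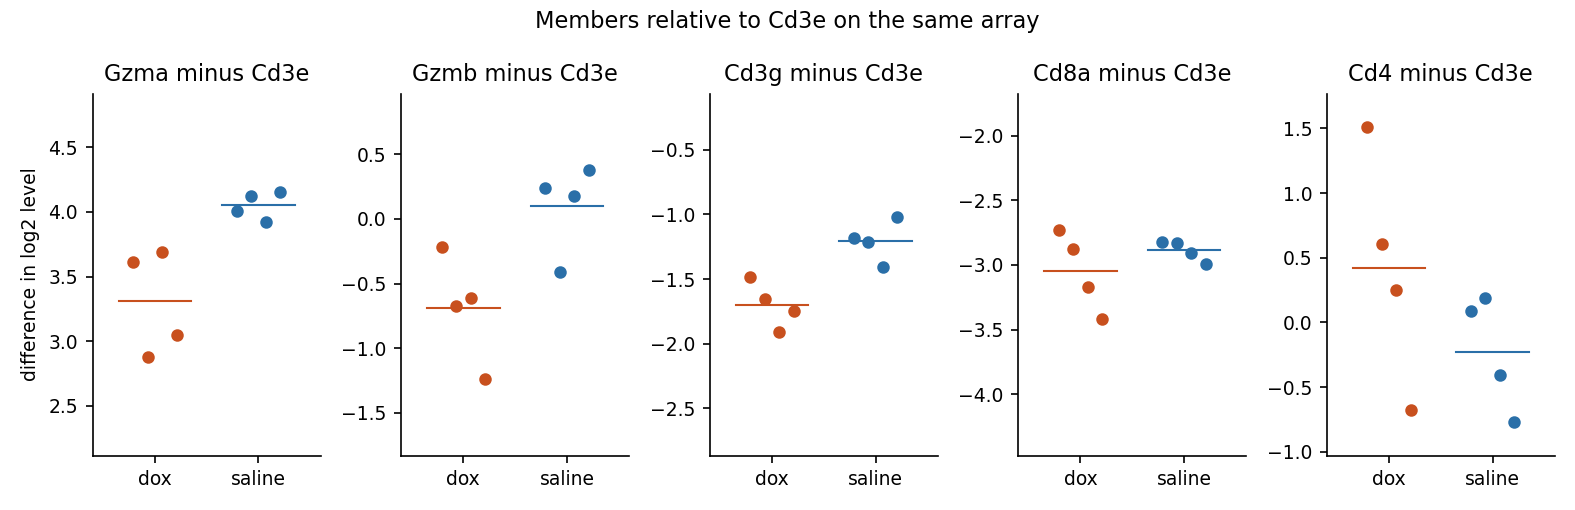
Difference in log2 level between a member and Cd3e on the same array, for Gzma, Gzmb, Cd3g, Cd8a and Cd4, with doxycycline (dox, orange, left) and saline (blue, right); points are arrays and lines are group means. For Gzma and Cd3g every doxycycline array lies below every saline array, while the other 3 overlap.

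Within groups, the members varied together only in part. Deviations from the group means were most alike for Cd3e and Cd3g (Pearson r = 0.87 over the 8 arrays), then for Cd8a and Itgae (0.82), while Gzma and Gzmb had r = 0.11 and Cd8b1 and Gzma -0.58. These values describe 8 arrays only. The mean deviation of the 9 members was highest in saline replicate 2 (0.36) and lowest in saline replicate 4 (-0.36). Likeness to that mean was searched among the other tested genes with a value on every array, clone and predicted names left out. The most alike were Irf4 (r = 0.993), Ppp1r18 (0.989), Pira2 (0.985), Cd48 (0.981) and Mylk2 (0.98), over 8 arrays. Irf4 is a transcription factor of lymphocytes, and Cd48 is a surface protein of most leukocytes. None of these 5 was called, with adjusted p between 0.495 and 0.974.

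Genes that work beside the members were taken from 14 lists of pathways and cell types. Of 175 distinct names listed, 169 were on the array and 136 were tested. Of those tested, 5 were called higher and 8 lower, against 5.94% and 7.9% of all genes. A probe detected on the 4 doxycycline arrays alone was kept for testing, so the median of a list with dim genes can lean upward. T cell receptor signalling gave no call among 17 tested genes, 4 of which had an unadjusted p under 0.05 in limma, with a median difference of 0.34. Those with the smallest p were Lef1, Bcl11b, Tcf7 and Trat1. Lef1 and Tcf7 are transcription factors of naive T cells. Lef1 read -1.18, 0.30, 0.34 and 1.6 with doxycycline and -2.95, 0.14, -2.84 and -3.33 with saline (adjusted p = 0.0720). Lef1 was detected on 2 of 4 saline arrays, and outside replicate 2 the saline levels lay near or below the dimmest detected signal of their arrays. Saline replicate 2 lay with the doxycycline arrays, and without it Lef1 was higher by 3.31 (adjusted p = 0.00936). Without that array 2 of the 17 genes were called higher. Without doxycycline replicate 1, Lef1 (adjusted p = 0.0478) and Tcf7 (0.0455) passed as well. Bcl11b, a factor needed for T cell identity, read 0.31, 0.34, -0.48 and -0.23 with doxycycline and 0.81, 0.37, 0.71 and 0.55 with saline, without overlap (difference -0.62, adjusted p = 0.0925). It was called lower with the mean of its probes (-1.02, adjusted p = 0.0370) and with array weights (-0.77, adjusted p = 0.0234). Of the 17 genes of the list, 14 had a positive difference.

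Traits of intraepithelial lymphocytes gave 2 genes called lower and none higher among 17 tested, with a median difference of 0.13. Tbx21 encodes T-bet, the T-box factor that drives cytotoxic and type 1 programs. It read -1.57, -1.77, -2.33 and -1.84 with doxycycline and -0.79, -0.81, -1.17 and -0.78 with saline. The groups did not overlap, and the level was 1.99-fold lower with doxycycline (difference -0.99, SE 0.194, adjusted p = 0.0131). The call was lost in 1 of 18 alternatives, without saline replicates 2 and 4 together (-0.90, adjusted p = 0.0698). Cd7, a surface protein of T cells and natural killer cells, read 1.55, 0.96, 1.27 and 1.25 with doxycycline and 2.14, 2.15, 1.95 and 1.87 with saline, again without overlap. It was 1.71-fold lower (difference -0.77, SE 0.166, adjusted p = 0.0189). This call was lost in 5 of 18 alternatives, among them those without doxycycline replicate 3 (adjusted p = 0.0532) and saline replicates 1 (0.0640) and 3 (0.0520). The chemokines Ccl5 (-0.71, adjusted p = 0.0943, or 0.0412 without saline replicate 4) and Xcl1 (-0.62, adjusted p = 0.110) did not pass. Without saline replicate 2, Tbx21 and Cd7 stayed lower (-0.97 and -0.73), and 3 other genes of the list were called higher.

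Among 10 tested genes of the cytotoxic granule and its effectors, 1 was called lower and none higher, with a median difference of 0.03. Nkg7 encodes a membrane protein of cytotoxic granules that is needed for their release. It read 2.91, 2.76, 2.76 and 2.78 with doxycycline and 4.03, 4.09, 4.22 and 3.90 with saline. Both groups were tight and far apart: the level was 2.39-fold lower (difference -1.26, SE 0.136, adjusted p = 9.20e-04), and the call held under every alternative tried. Ifng, the interferon of type 1 responses, differed by -1.01 (SE 0.468, adjusted p = 0.176). Prf1, which encodes perforin, the partner of the granzymes, differed by 0.42 (SE 0.211, adjusted p = 0.213) and Gzmm, a further granzyme, by 0.81 (SE 0.382, adjusted p = 0.181), and the sign of both turned with normexp background (-0.10 and -0.067). Gzmb and Nkg7 were thus called lower. Prf1 and Gzmm, detected on 3 and 2 of 4 saline arrays, stayed positive in 17 of 18 alternatives and passed in none.

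Of 7 tested natural killer receptors and adaptors, 1 passed the test, with a median difference of 0.26. Klrc1, which encodes the receptor chain NKG2A, had a fitted difference of 1.03 (adjusted p = 0.0264), but it was detected on no saline array, and against the bound no fold can be given. With normexp background its sign turned (-0.043), and the call was lost without doxycycline replicate 3 (adjusted p = 0.0641) or saline replicate 1 (0.0787) or 3 (0.0676). Hcst, the adaptor through which NKG2D signals, read 2.02, 1.95, 2.13 and 2.72 with doxycycline and 1.87, 2.62, 1.68 and 1.47 with saline (difference 0.29, SE 0.279, adjusted p = 0.512). Tyrobp, the second adaptor of natural killer receptors, differed by 0.58 (SE 0.375, adjusted p = 0.325). Klrg1, an inhibitory receptor, read -4.23, -3.12, -4.84 and -3.67 on the doxycycline arrays and spread widely on the saline arrays, at 1.18, -2.0, -1.33 and -3.63 (difference -2.52, SE 0.881, adjusted p = 0.0896). Without saline replicate 4 it was called lower (-3.25, adjusted p = 0.0308), while without saline replicate 1 the difference was -1.64 (adjusted p = 0.130). Of the ligands of NKG2D, 3 could be tested and none was called. Raet1b, Raet1c and Raet1e differed by -0.35, -0.87 and -0.49, with adjusted p of 0.176, 0.0871 and 0.310. Raet1c was called lower with normexp background (-0.64, adjusted p = 0.0156), and with a common floor its difference was -0.071. These near-identical genes may share signal on their probes.

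No gene of the regulatory T cell list was called among 11 tested, with a median difference of 0.67. Several of these genes were detected on fewer saline than doxycycline arrays, which limits this median. Ctla4, an inhibitory receptor that regulatory cells carry, was detected on no saline array. Its doxycycline mean lay 1.12-fold above the bound (fitted difference 1.67, adjusted p = 0.0775). No fold can be given without doxycycline replicate 3 or 4, and with normexp background the difference was 0.25 (adjusted p = 0.427) and with a common floor 0.45. It passed the test in 3 of 18 alternatives, without doxycycline replicate 1 (adjusted p = 0.0337), with array weights (0.0244) and without a filter on dim probes (0.0437). Tnfrsf4, the costimulatory receptor OX40, read 0.47, 0.98, 1.59 and 1.7 with doxycycline and -0.16, 1.09, -0.28 and -0.09 with saline (difference 1.04, adjusted p = 0.0938). Saline replicate 2 lay among the doxycycline arrays, and without it Tnfrsf4 was called higher (1.36, adjusted p = 0.0250), as 1 of 2 genes of this list.

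No gene of the helper T cell list was called among 8 tested, and none had an unadjusted p under 0.05 in limma, with a median difference of 0.72. Il21 and Ccr4 were detected on 4 of 4 doxycycline and 0 of 4 saline arrays, which limits this median. Cxcr5, the homing receptor of follicular cells, read -0.23 to 1.43 on the doxycycline arrays, and on the saline arrays 2.18 in replicate 2 and -2.86 to -2.6 in the others (difference 2.07). The other saline levels lay near the dimmest detected signal of their arrays. Without saline replicate 2, Cxcr5 was called higher (3.29, adjusted p = 0.00233), as 1 of 2 genes of this list. The B cell markers separated the same array.

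The list of epithelial signals that keep or attract intraepithelial lymphocytes had 2 of 13 tested genes called lower and none higher, with a median difference of -0.28. Ccl25 encodes the chemokine that draws cells with the receptor CCR9 to the small intestine. It read 6.83, 6.21, 6.49 and 6.39 with doxycycline and 7.74, 7.58, 7.71 and 8.04 with saline. All doxycycline arrays lay below all saline arrays, and the level was 2.44-fold lower (difference -1.29, SE 0.179, adjusted p = 0.00285). With the mean of its probes in place of the brightest the difference was -0.67 and did not pass (adjusted p = 0.0980). H2-T3 encodes the thymus leukaemia antigen, which gut epithelium displays and which binds CD8 alpha homodimers. It read 2.15, 1.30, 1.52 and 1.09 with doxycycline and 2.65, 2.62, 2.58 and 2.82 with saline, without overlap, and was 2.22-fold lower (difference -1.15, SE 0.228, adjusted p = 0.0137). This call was lost without saline replicates 2 and 4 together (-1.10, adjusted p = 0.0681). Btnl1, a butyrophilin-like protein that maintains gamma delta T cells in the mouse gut epithelium, read 6.19, 5.88, 5.32 and 4.95 with doxycycline and 6.78, 6.67, 6.79 and 6.11 with saline. It missed the threshold in the primary setting (difference -1.0, SE 0.288, adjusted p = 0.0506) and passed it in 7 of 18 alternatives, among them those without doxycycline replicate 1 (0.0255) and saline replicate 4 (0.0381). Il15, a survival cytokine of intraepithelial lymphocytes, differed by -0.87 (SE 0.347, adjusted p = 0.124). It was called lower with normexp background (-0.62, adjusted p = 0.0460) and with array weights (-0.97, adjusted p = 0.0363). The receptor of Ccl25, Ccr9, was in the list of lymphocyte traits and was not called.

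Markers of other cells differed on the same arrays, and their part in the results above was not tested. Of 10 epithelial markers, 2 were called lower: Cdx2, an intestinal transcription factor (-1.14, adjusted p = 0.00543), and Krt19, a keratin (-0.61, adjusted p = 0.0262), whose call was lost in 6 of 18 alternatives. The mean level of that list, set to 0 at the saline mean, was -0.39 to -0.08 with doxycycline and -0.11 to 0.07 with saline. The 9 pan-leukocyte markers gave no call, with a median difference of 0.8, a mean level of 0.27 to 1.5 with doxycycline and of -0.85 to 1.51 with saline. Without saline replicate 2, 6 of these 9 and 7 of the 9 B cell markers were called higher, against none with it. That array was left out for its high B cell markers, so these calls follow in part from the choice. Over all 21362 genes, 1438 were called higher without it and 1268 with it. With all arrays kept, Gzmb, Nkg7, Tbx21 and Cd7 were called lower with doxycycline. Differences were positive for 6 of 10 tested genes of the cytotoxic granule list and 9 of 17 of the intraepithelial lymphocyte list. Several of the positive genes, Prf1 and Gzmm among them, were detected on fewer saline than doxycycline arrays, so these counts can lean upward. Nkg7, Tbx21 and Cd7 were the only genes called in these lists, so the calls describe these genes and not the lists.

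Myeloid markers were called in both directions. Among 10 macrophage markers, the complement genes C1qb (1.18, adjusted p = 0.0330) and C1qc (0.85, adjusted p = 0.0361) were called higher and Adgre1, a surface receptor of macrophages, lower (-0.95, adjusted p = 0.0253). Among 5 tested neutrophil markers, S100a9 (2.59, adjusted p = 0.0254) and S100a8 (3.58-fold above the bound, adjusted p = 0.0264) were called higher. S100a8 was detected on 4 of 4 doxycycline and 0 of 4 saline arrays, so it entered the test through the doxycycline arrays alone. With single arrays left out, the S100a8 fold ran from 2.58 (without doxycycline replicate 4) to 5.66 (without doxycycline replicate 1). The fitted S100a8 difference of 3.41 shrank to 1.14 with normexp background and to 1.69 with a common floor, and passed in neither. Each of the 5 macrophage and neutrophil calls was lost in 5 to 8 of 18 alternatives, most of them without 1 array. None of 8 dendritic cell markers was called (median difference 0.09). Without saline replicate 2, 3 macrophage markers were called higher and 1 lower, 3 neutrophil markers were called higher, and so was 1 dendritic cell marker, Zbtb46 (0.91, adjusted p = 0.0312), which was detected on no saline array.

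**Figure D4:**
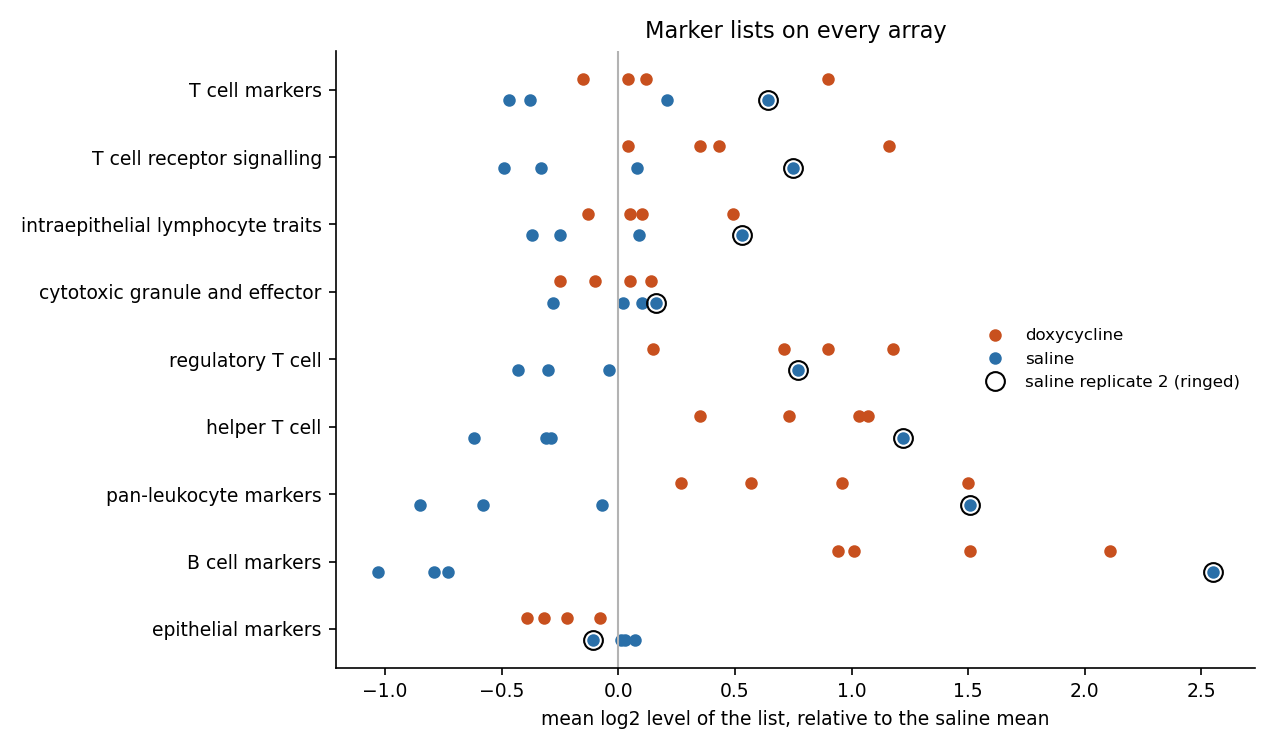
Mean log2 level of 9 marker lists on every array, set to 0 at the saline mean of each list; doxycycline arrays are orange (upper row of each list), saline arrays blue (lower row), and saline replicate 2 is ringed. On the B cell list the ringed array lies at 2.55, above all others, while the other 3 saline arrays lie at -1.03 to -0.73.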

How the data were processed

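RNA of 8 ileum samples, 200 ng each, was labelled with Cy3 and read on Agilent mouse arrays, per the labels. Spot intensity, on a linear scale, comes from the deposited scanner files. These were written by Agilent Feature Extraction 10.7.3.1, as stated in the submitters' processing notes and, per the file headers, in each file. The deposited value table holds log2 values that equal the log2 processed intensity minus a constant per array, so its scale, centring and direction are known. Its columns had medians of -3.77, -3.92, -3.83 and -3.81 (doxycycline replicates 1 to 4) and of -3.97, -3.7, -3.79 and -3.86 (saline replicates 1 to 4). It served as an alternative.

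Control spots and outlier spots (169 to 259 per array) were left out, no probe spot was saturated, and spots of a probe were averaged. The log2 processed intensity was reduced by each array's 75th percentile. Probes well above background on at least 4 of 8 arrays were kept (28626), and the brightest stood for its gene (21362 genes). Of these, 56 genes had a missing value on some array and were fitted on the arrays left. The test was the two-sided moderated test of limma 3.58.1 (lmFit, eBayes; R 4.3.3), with Benjamini-Hochberg adjustment across genes and a threshold of 0.05, and it was tested on simulated data. Where no array of a group had a probe well above background, its fold is a bound. For this, each array of the dim group takes the dimmest signal well above background, or the probe's own signal if higher, and the mean of these is set against the mean of the other group. Errors are SD beside means and SE beside differences. The number of arrays limits the precision. Whether each array holds its own animal is not stated, so the p-values cover the spread between samples, which may be technical. Positions of probes follow the mm9 annotation in the files; exons and untranslated regions were not analysed here.

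The members and gene lists were chosen with earlier results of these data known. Named genes are the 10 members, up to 4 tested genes with the smallest p per list, and 5 genes with deviations most like those of the members. Clone and predicted names were left out of these 5. Some genes of the lists are not reported here and were left out of the lists. Cd2 and Ccr9 were named after their values were seen. Replicate numbers were not treated as pairs in the primary setting. Alternatives were normexp background with an offset of 50, the value table, quantile scaling, other filters on dim probes, a common floor, the mean of probes, array weights, a replicate block, each replicate left out, and saline replicates 2 and 4 left out together.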

Additional observations from a re-analysis of the deposited data

Results flagged for a closer look

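Among 168 groups of 4 arrays examined (the members, the named genes and the list means), 15 had an array that stood far from the other 3 of its group. Chance alone marks about 1 in 20 such groups. No member was among them. Of the 15, 9 were in saline replicate 2. There Cxcr5 read 2.18, Cd37 3.05, Ms4a1 4.19 and Bank1 1.35, each above the other 3 saline arrays. Lef1 (0.14), Tnfrsf4 (1.09) and S100a8 (-2.53) were also above them, S100a8 without being well above background. On the same array the mean of the B cell markers was 2.55 and that of the neutrophil markers 1.03.

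In saline replicate 4, Ccl5 (4.82) and the mean of the natural killer receptors and adaptors (-0.59) lay below the other saline arrays, and Ccr4 (-3.16) lay above them without being well above background. Tbx21 was low in saline replicate 3 (-1.17), which still lay above every doxycycline array. Nkg7 was high in doxycycline replicate 1 (2.91) and Krt19 in doxycycline replicate 2 (7.37), and both lay below every saline array.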

How the results depend on the processing

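Gzmb stayed lower and past the threshold under all 18 alternatives, and Nkg7 and Cdx2 kept their calls too. No member was called higher in any setting. Without a filter on dim probes 2 members were called lower, Gzmb and Klrk1, the second never well above background, and with array weights 2, Gzmb and Gzma. In that unfiltered setting the median of all genes was -0.33, 1850 genes were called higher and 11809 lower. Array weights gave 2774 genes higher and 3211 lower. Leaving out single replicates gave 648 to 1541 higher and 729 to 1870 lower. Leaving out saline replicates 2 and 4 together gave 1090 higher and 1027 lower. The replicate block gave 787 higher and 905 lower, with Gzmb at an adjusted p of 0.0401 and Raet1c called lower at 0.0418. Deviations of arrays with the same number correlated at -0.044 to 0.113, and 1 of 8 arrays correlated best with their own number. These values give no sign of pairing by number, but they cannot show that none exists.

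Of the 136 listed genes tested, 5 were called higher and 8 lower, shares below the 5.94% and 7.9% over all genes. These counts were 9 higher and 23 lower unfiltered, 15 and 15 with array weights, 2 higher with the replicate block and 15 higher without saline replicates 2 and 4. Leaving out single replicates gave 0 to 30 higher and 5 to 11 lower, the 30 without saline replicate 2 and 0 without doxycycline replicate 3 or saline replicate 1 or 3.

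Signs turned for results that did not pass, Klrc1 excepted. With normexp these were Itgae (-0.27), Ppp1r18 (-0.29), Gzmm (-0.067), Prf1 (-0.10), Zbtb46 (-2.17e-04) and Klrc1 (-0.043). With a common floor they were Itgae (-0.040), Ppp1r18 (-0.079) and Retnlg (-0.19), and with array weights Itgae (-0.35), Ppp1r18 (-0.14) and Cd48 (-0.086). Itgae was also -0.36 without saline replicates 2 and 4. With single replicates left out, the differences ranged as follows. The range was -0.15 to 0.15 for Cd3e, -0.24 to 0.32 for Cd48, and -0.47 to 0.29 for Itgae. It was -0.28 to 0.0094 for Cd8a, -0.019 to 0.83 for Irf4 and -0.30 to 0.56 for Ppp1r18. The cause was not tested. Low signal over background limits Itgae, Foxp3, Klrk1 and the dimmer Cd4 and Cd8a probes, more so on saline arrays.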
